A study of Mus musculus with 6 samples.

Results

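The genes described here are 35 interferon-stimulated genes of the mouse, chosen by symbol as known targets of interferon. The rule uses no array value, but it was set with earlier results of these data known. Of these 35, 32 had at least 1 probe on the array whose RefSeq accession maps to the symbol. No probe was matched to Mx1, Mx2 or Ddx60. All 32 were well above background on all 6 arrays by the probe used, and all 32 entered both comparisons, among 20196 features tested on 6 arrays and 20566 tested on 4. The array's named probes covered 20661 genes. A further 28436 probes had no gene symbol, and those that passed the filter are counted among the features under their own identifiers.

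RNA was measured on 1-colour (Cy3) Agilent arrays in fibroblasts cultured from heart and from skinned tail of male C57/Bl6-J mice. The samples are labelled as 8 weeks old, and the protocol gives 8 to 10 weeks. Both tissues were digested with enzymes and plated for 5 days in medium with serum, with no interferon or other agent named, and each of the 3 heart and 3 tail cultures was pooled from 2 animals. Cells were obtained by plating, with no sort named, and all 12 fibroblast markers checked, collagens, Vim and Pdgfra among them, were well above background on all 6 arrays.

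Interferons are secreted proteins that cells release on sensing viral nucleic acid. Type I and type III interferons act through receptors and Jak kinases on a complex that contains Stat2 and Irf9 and binds a DNA element called the interferon-stimulated response element, while the response to type II interferon runs through another element, the gamma-activated sequence. The induced genes encode antiviral effectors, nucleic acid sensors, transcription factors that feed the response, and the machinery of antigen processing, and many are also transcribed at a low level in unstimulated fibroblasts.

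The promoter windows of 5 members are shown, 4 that were called over 4 arrays (Rsad2, Cmpk2, Oasl1 and Ifit3) and Isg15, which was not, because they include windows with and without the response element's core. They were chosen after values and matches were seen. The core was searched as GAAA, any 2 bases, then GAAA again (on the other strand TTTC, any 2 bases, then TTTC), in 250 bases before to 50 bases after each transcript start in RefSeq (GRCm38.p6). It was present in 12 of the 26 members with a window (46.2%), against 3.99% of all 27025 genes and 3.44% of all 32851 windows. In the 250 bases before the start alone, it was present in 10 of 26 (38.5%), against 3.46% of genes and 2.98% of windows. The gamma-activated sequence was searched as TTC, any 3 bases, then GAA, which reads the same on both strands. It was present in 6 of 26 members (23.1%), against 9.55% of genes and 8.3% of windows. Several members have more than 1 window, and matches can overlap.

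The 250 bases before the start are printed from 5′ to 3′ on the gene's strand, with every core match in capitals. Rsad2 and Cmpk2 are neighbouring genes that lead away from each other on chromosome 12, at chr12:26456453-26456702 (minus strand) and chr12:26468965-26469214 (plus strand). The windows of Oasl1, Ifit3 and Isg15 lie at chr5:114922990-114923239 (plus strand), chr19:34583279-34583528 (plus strand) and chr4:156200819-156201068 (minus strand).
Rsad2: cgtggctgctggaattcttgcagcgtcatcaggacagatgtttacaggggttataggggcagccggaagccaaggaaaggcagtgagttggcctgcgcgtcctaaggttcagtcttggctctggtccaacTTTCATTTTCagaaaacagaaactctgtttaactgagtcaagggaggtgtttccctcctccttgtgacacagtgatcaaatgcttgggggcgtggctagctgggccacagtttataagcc
Cmpk2: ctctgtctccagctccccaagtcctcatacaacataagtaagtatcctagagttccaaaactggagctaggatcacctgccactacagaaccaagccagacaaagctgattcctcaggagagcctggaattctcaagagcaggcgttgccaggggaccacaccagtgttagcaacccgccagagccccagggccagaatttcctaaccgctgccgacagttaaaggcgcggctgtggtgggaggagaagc
Oasl1: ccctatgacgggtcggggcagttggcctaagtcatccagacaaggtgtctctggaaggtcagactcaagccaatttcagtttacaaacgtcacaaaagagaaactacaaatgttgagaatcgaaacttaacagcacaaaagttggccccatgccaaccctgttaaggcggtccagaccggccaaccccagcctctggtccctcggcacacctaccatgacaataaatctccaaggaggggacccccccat
Ifit3: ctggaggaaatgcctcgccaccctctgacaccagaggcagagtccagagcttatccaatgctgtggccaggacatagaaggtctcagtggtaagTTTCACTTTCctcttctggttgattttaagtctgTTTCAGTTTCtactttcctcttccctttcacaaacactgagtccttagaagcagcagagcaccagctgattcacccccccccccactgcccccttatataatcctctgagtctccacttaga
Isg15: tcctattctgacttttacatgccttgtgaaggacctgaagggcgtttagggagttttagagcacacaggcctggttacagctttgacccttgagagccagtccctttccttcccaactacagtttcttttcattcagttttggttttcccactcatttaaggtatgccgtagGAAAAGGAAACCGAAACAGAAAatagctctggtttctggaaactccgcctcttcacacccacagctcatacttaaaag

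Rsad2 held 1 core, whose first base lay at -120 from the start. Ifit3 held 2, at -156 and -122, and Isg15 had 3 overlapping matches in 1 run, at -78, -72 and -66. The windows of Cmpk2 and Oasl1 held none of these letters. The windows of Cmpk2, Oasl1 and Ifit3 end inside the annotated genes, which begin at bases 26469117, 114923143 and 34583119. Presence or absence of a core there thus depends on the transcript start used. Eif2ak2, not shown, had its only core 18 bases after the start. A match is a description of letters and not a measured binding site.

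**Figure D1:**
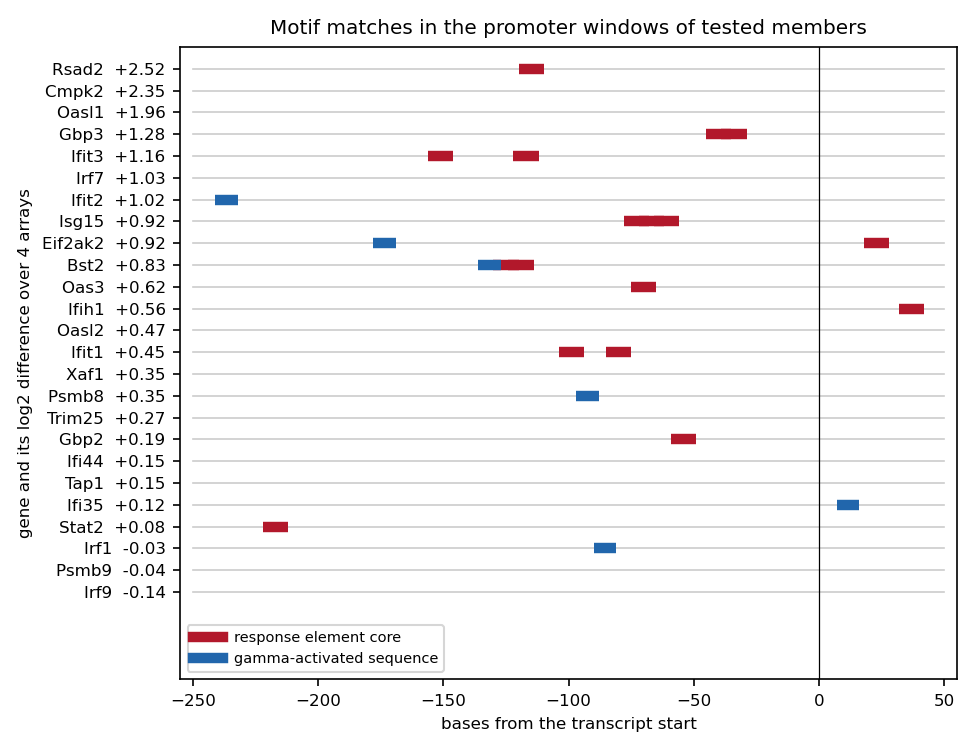
Positions of the searched motifs from 250 bases before to 50 bases after the transcript start, for the 25 tested members with a window (x axis, bases from the start), ordered by the log2 difference over 4 arrays printed beside each name. Red bars are response element cores and blue bars gamma-activated sequences; Isg15 carries 3 overlapping cores and Cmpk2 and Oasl1 none.

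Before any comparison, 2 of the 6 arrays stood apart. The array labelled heart 2 had 99.3% of its non-control spots well above background, against 47.3% to 55.2% on the other 5, a median spot signal of 949 against 24.3 to 37.8, 2748 non-uniform spots against at most 7, and correlations with the others of 0.742 to 0.764. The array labelled tail 1 was of ordinary quality but went against its label. Tcf21, a regulator of cardiac fibroblasts, had log2 signals, relative to the array's 75th percentile, of 5.37, -2.38 and 5.28 on heart 1, 2 and 3 and of 5.44, -5.45 and -5.64 on tail 1, 2 and 3. Hoxb13, a homeobox gene of the posterior trunk and tail, had -7.04, 4.44 and -5.44 on heart 1, 2 and 3 and -6.97, 6.60 and 6.76 on tail 1, 2 and 3. Tail 1 thus lay with heart 1 and 3 at both genes, and heart 2 lay on the tail side at Hoxb13. Each result is therefore given over all 6 arrays by label and over 4 arrays, heart 1 and 3 against tail 2 and 3. Tail 1 was left out because its values oppose its label, which is a choice made on the outcome. Adjusted p-values over 4 arrays are therefore optimistic to a degree that is not known. Every array kept its labelled group.

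Over all 6 arrays by label, no difference in the interferon-stimulated genes was detected. limma with Benjamini-Hochberg adjustment called 0 of the 32 members, as it called 0 of all features (0%), and at an unadjusted p under 0.05 there were 0 members against 445 features (2.2%). The members' log2 differences, heart minus tail, ranged from -1.21 to 0.60 with a median of -0.90, beside a median of -0.40 over all features, and 4 of 32 were positive against 28.5% of features. The smallest adjusted p among members was 0.714. For Rsad2 the difference was 0.44 (SE 1.12, adjusted p = 0.845) and for Isg15 -0.99 (SE 1.19, adjusted p = 0.716). The groups of all 32 members overlapped, while 2.05% of features had all heart arrays higher and 8.32% all lower. With the replicate number as a block limma called 0 members and 0.218% of features.

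Fits that weight arrays by their quality gave answers that varied with the estimation and with how the 75th percentile was taken. The planned weights stopped before convergence and called 0 members and 0.00495% of features, with a member median of 0.43, 29 of 32 members positive and a smallest member adjusted p of 0.0607. Weights estimated gene by gene, added after that result was seen, called 4 members (Cmpk2, Oas2, Oasl1 and Rsad2) and 10.8% of features. With the 75th percentile taken over spots in place of probes, the planned estimation, again before convergence, called 12 members and 21.1% of features, and the gene-by-gene estimation 3 members (Cmpk2, Oasl1 and Rsad2) and 10% of features. Heart 2 had the lowest weight in each of the 4 fits, between 0.0295 and 0.0358.

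The array labelled heart 2 was the lowest of the 6 in 31 of 32 members, Oas3 being the exception, and was the lowest in 66% of features. Tail 1 lay nearer to heart 1 and 3 than to tail 2 and 3 in 30 of 32 members, against 72.4% of features, with Irf1 and Psmb9 on the tail side. Without heart 2 alone, 26 of 32 members were positive (46.3% of features), the median was 0.24, and limma called 0 members and 0 of 20280 features (0%).

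**Figure D2:**
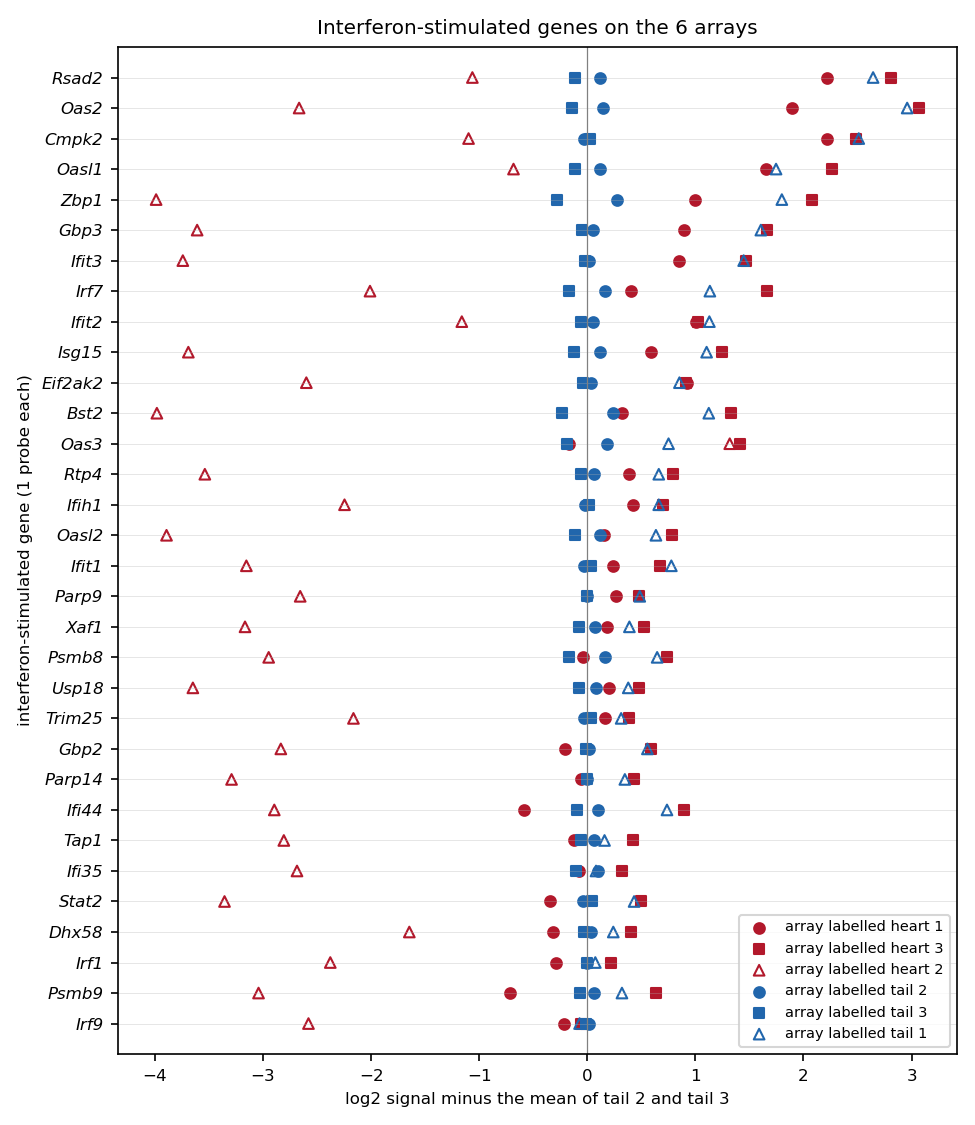
Signal of the 32 measured interferon-stimulated genes on each of the 6 arrays, as the log2 signal minus the mean of tail 2 and 3 (x axis), 1 row per gene and 1 probe per gene. Filled symbols are the 4 arrays compared and open triangles the arrays labelled heart 2 and tail 1; heart 2 is lowest in 31 of 32 rows, and tail 1 lies nearer to heart 1 and 3 in 30.

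Over the 4 arrays, 7 members were higher in heart and 0 were lower (limma, Benjamini-Hochberg adjusted p under 0.05), while 25 did not pass. Of all 20566 features, 14.4% were called, 7.75% higher in heart and 6.63% lower. The 7 were Rsad2, Oas2, Cmpk2, Oasl1, Ifit3, Ifit2 and Eif2ak2, by log2 differences from 0.92 to 2.52. The median over all 32 members was 0.46, beside -0.07 over all features. At an unadjusted p under 0.05, 12 members were higher in heart, against 13.9% of features. A positive difference was found in 29 of 32 members, against 43.9% of features. Groups did not overlap, with both heart arrays higher, in 20 of 32 members against 25.5% of features, and Irf9 was the 1 member with both heart arrays lower, against 36.9%. In cultures of mixed cells, fewer cells of a type and less RNA per cell cannot be told apart.

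**Figure D3:**
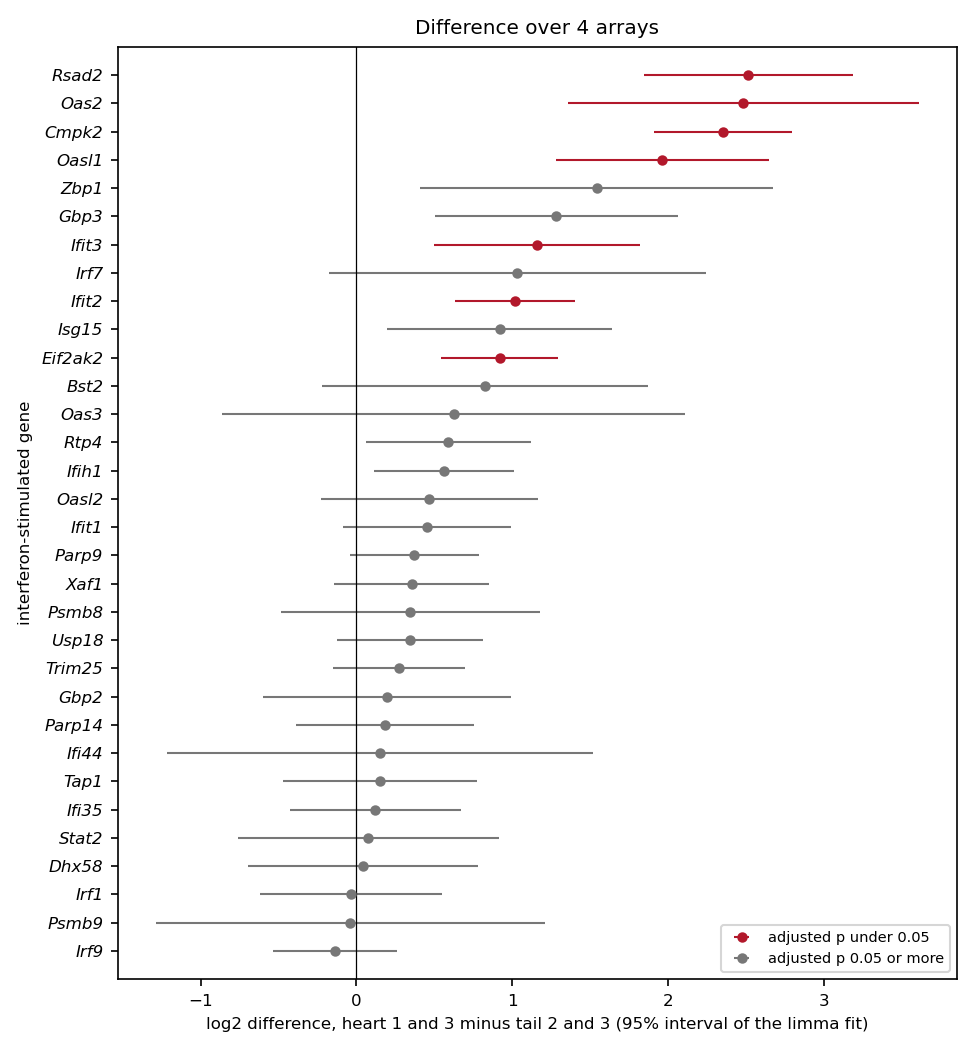
Log2 difference of heart 1 and 3 minus tail 2 and 3 (x axis) for each of the 32 members, with the 95% interval of the limma fit. Red points are the 7 members with an adjusted p under 0.05, from 0.92 for Eif2ak2 to 2.52 for Rsad2, and grey points the 25 that did not pass.

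The 4 largest differences were those of Rsad2, Oas2, Cmpk2 and Oasl1. In the group of Rsad2, Cmpk2 and the oligoadenylate synthetase family, 4 of 6 rose, against 7.75% of all features. Its median log2 difference was 2.16. The group holds the 4 largest differences, so its count and median restate them. Rsad2 encodes viperin, an enzyme that makes a chain-terminating nucleotide, and Cmpk2 a nucleotide kinase that supplies it. Rsad2 had log2 signals of 1.14 and 1.74 on heart 1 and 3 and of -0.96 and -1.19 on tail 2 and 3, with -2.14 on heart 2 and 1.57 on tail 1. Both heart arrays lay above both tail arrays, tail 1 lay between the heart arrays, and heart 2 was lowest of all. The difference was 2.52 (SE 0.25, 5.72-fold, limma adjusted p = 0.00666).

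Cmpk2 had signals of 1.34 and 1.61 on heart 1 and 3, -0.90 and -0.85 on tail 2 and 3, -1.97 on heart 2 and 1.64 on tail 1. Its groups were apart and the closest together within tissue among the 4 largest differences. The difference was 2.35 (SE 0.17, 5.11-fold, limma adjusted p = 0.00268), and a further Cmpk2 probe differed by 2.40 over the same arrays. That further probe is the 1 member probe listed in the authors' deposited table, at a log2 fold change of 2.23 (4.68-fold, heart over tail).

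Oas2 makes the oligoadenylate that activates RNase L. It had signals of 3.19 and 4.36 on heart 1 and 3, 1.43 and 1.15 on tail 2 and 3, -1.38 on heart 2 and 4.25 on tail 1. The heart arrays were both higher but more than a log2 unit apart. The difference was 2.48 (SE 0.42, 5.59-fold, limma adjusted p = 0.0270).

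Oasl1, a related protein without synthetase activity that restrains translation of Irf7 mRNA, had signals of 4.42 and 5.03 on heart 1 and 3, 2.88 and 2.65 on tail 2 and 3, 2.08 on heart 2 and 4.51 on tail 1. Groups did not overlap, and tail 1 again lay between the heart arrays. The difference was 1.96 (SE 0.26, 3.89-fold, limma adjusted p = 0.0130). The remaining family members did not pass. Oas3 differed by 0.62 (adjusted p = 0.511) and Oasl2, the neighbour of Oasl1 on chromosome 5, by 0.47 (adjusted p = 0.312). Oas3 overlapped, since heart 1 had -2.97 and heart 3 had -1.38 beside -2.61 and -2.98 on tail 2 and 3.

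Of the Ifit proteins, which bind foreign RNA ends and block translation, 2 of 3 rose, against 7.75% of all features. Ifit3 had signals of 5.46 and 6.08 on heart 1 and 3, 4.63 and 4.59 on tail 2 and 3, 0.87 on heart 2 and 6.06 on tail 1. It differed by 1.16 (SE 0.25, limma adjusted p = 0.0499), just inside the threshold. Ifit2, its neighbour on chromosome 19, had 0.03 and 0.05 on heart 1 and 3, -0.93 and -1.03 on tail 2 and 3, -2.14 on heart 2 and 0.15 on tail 1. The heart arrays of Ifit2 nearly coincided, and both lay above the tail arrays. Its difference was 1.02 (SE 0.14, limma adjusted p = 0.0162). Ifit1 differed by 0.45 and did not pass (adjusted p = 0.230). Whether the Ifit3 probe also reads the near-identical gene Ifit3b was not tested.

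Eif2ak2 encodes the kinase PKR, which halts translation on binding double-stranded RNA. Its signals were 2.94 and 2.93 on heart 1 and 3, 2.05 and 1.98 on tail 2 and 3, -0.58 on heart 2 and 2.87 on tail 1. Apart from heart 2, arrays differed far less within than between the compared groups, and the difference was 0.92 (SE 0.14, limma adjusted p = 0.0207). Bst2, or tetherin, which holds budding virions at the membrane, differed by 0.83 (adjusted p = 0.253), with heart 1 at 6.29 only just above tail 2 at 6.21.

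Of the 3 measured nucleic acid sensors, 0 passed, which for so few genes is near the 14.4% of all features called. Zbp1, a sensor of Z-form nucleic acid that triggers necroptosis, had 4.93 and 6.02 on heart 1 and 3, 4.21 and 3.66 on tail 2 and 3, -0.05 on heart 2 and 5.73 on tail 1. Its groups did not overlap, but the arrays of each tissue were spread, and the difference of 1.54 (SE 0.43) had an adjusted p of 0.0922 by limma. A further Zbp1 probe differed by 1.90. Ifih1, which encodes the long-RNA sensor MDA5, differed by 0.56 (adjusted p = 0.112) and by 0.99 at its other probe, and Dhx58, its regulator LGP2, by 0.04 (adjusted p = 0.938).

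Among the 4 transcription factors, 0 passed, again near the 14.4% of all features, and the median difference was 0.02. Irf7, the factor that amplifies interferon production, had 2.71 and 3.97 on heart 1 and 3, 2.47 and 2.14 on tail 2 and 3, 0.29 on heart 2 and 3.44 on tail 1. Heart 1 lay close to the tail arrays and heart 3 well above them, so the difference of 1.03 had an SE of 0.46 and an adjusted p of 0.227 (limma). Stat2 differed by 0.08, Irf1 by -0.03 and Irf9 by -0.14, with adjusted p of 0.896, 0.935 and 0.583 and 95% intervals of -0.76 to 0.91, -0.62 to 0.55 and -0.54 to 0.26. The other Irf1 probe, well above background on 1 of the 6 arrays, differed by 0.49.

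Isg15, a ubiquitin-like protein joined to other proteins, was at 8.06 and 8.71 on heart 1 and 3 and 7.59 and 7.34 on tail 2 and 3, with 3.77 on heart 2 and 8.57 on tail 1. Groups were apart, but the difference of 0.92 (SE 0.27) did not pass (limma adjusted p = 0.107). Its other probe differed by 1.22. The protease that removes Isg15, Usp18, differed by 0.34, and the Isg15 ligase and RIG-I partner Trim25 by 0.27. The guanylate-binding protein Gbp3, a GTPase that attacks the vacuoles of pathogens, had 4.09 and 4.86 on heart 1 and 3, 3.25 and 3.15 on tail 2 and 3, -0.41 on heart 2 and 4.80 on tail 1. It differed by 1.28 (SE 0.29) and lay just outside the threshold (adjusted p = 0.0586), while Gbp2 differed by 0.19.

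The genes of antigen processing did not pass, nor did the others below. In groups this small, 0 calls is near the 14.4% of all features. Psmb8 and Psmb9, subunits of the immunoproteasome, differed by 0.35 and -0.04, and Tap1, a chain of the peptide transporter, by 0.15. These 3 genes are neighbours on chromosome 17. The Parp family genes Parp9 and Parp14 differed by 0.37 and 0.18. The 4 remaining induced genes differed by 0.12 for Ifi35, 0.15 for Ifi44, 0.35 for the apoptosis-related Xaf1 (0.17 at its other probe) and 0.59 for the receptor chaperone Rtp4, with 0 called.

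Beside the difference between tissues, the members differed between the 2 heart cultures. Heart 3 was above heart 1 in 31 of 32 members, against 53.6% of features, by a median of 0.60 on the log2 scale beside 0.04 over all features, whose median gap without sign was 0.29. The gap was widest for Oas3 (1.59), Ifi44 (1.48) and Psmb9 (1.34), and Eif2ak2, at -0.01, was the exception. Tail 2 was above tail 3 in 27 of 32 members (55.6% of features), by a median of 0.12 beside 0.03 over all features, whose median gap without sign was 0.13. Without sign the members' medians were likewise 0.60 and 0.12. Within the first slide row (heart 1 and tail 2) and the second (heart 3 and tail 3), the difference was positive in both rows for 20 of 32 members, against 28.2% of features. Row 2 had the larger difference in all 32 members, against 54.1% of features, as for Oas2 with 1.75 in row 1 and 3.21 in row 2. The excess of row 2 is the gap of heart 3 over heart 1 plus that of tail 2 over tail 3. This count therefore restates those gaps. Without heart 2 and tail 1, each row holds 1 culture of each tissue, so row and culture cannot be told apart. With the slide row as a block, Eif2ak2 was lost at an adjusted p just above the threshold (0.0500) and Gbp3 was called (adjusted p = 0.0313, limma).

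**Figure D4:**
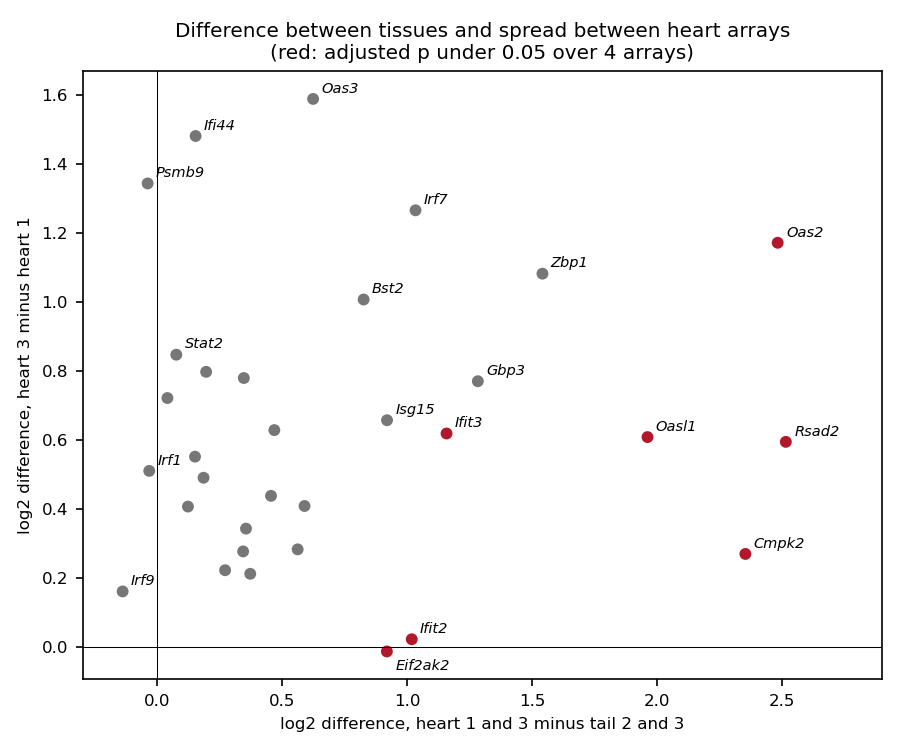
Each of the 32 members by its log2 difference between tissues over 4 arrays (x axis) and its log2 difference between heart 3 and heart 1 (y axis), with the 7 called members in red. All but Eif2ak2 lie above 0 on the y axis, with Oas3 highest at 1.59.

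The calls rested on few arrays. Without tail 2, 3 members (Cmpk2, Oasl1 and Rsad2) and 8.97% of features were called, and without tail 3, 2 members (Cmpk2 and Rsad2) and 7.14% of features. The calls lost had adjusted p of 0.0663 and 0.0763 for Oas2, 0.145 and 0.197 for Ifit2, 0.191 and 0.240 for Eif2ak2 and 0.208 and 0.220 for Ifit3, each without tail 2 and then without tail 3, and 0.0586 for Oasl1 without tail 3. The differences themselves ranged from 1.90 to 3.07 for Oas2, 0.96 to 1.07 for Ifit2, 0.88 to 0.95 for Eif2ak2, 0.85 to 1.47 for Ifit3 and 1.66 to 2.27 for Oasl1 on leaving out 1 of the 4 arrays. Without heart 1, the member median was 0.76, and the spread between the 2 heart cultures was left out of the fit. Over the 4 omissions the difference ranged from 0.59 to 1.25 for Isg15, 0.40 to 1.67 for Irf7, 1.00 to 2.08 for Zbp1, 0.90 to 1.67 for Gbp3 and 0.32 to 1.33 for Bst2. Without heart 3, the member median was 0.22 and 20 of 32 members were positive. Of 13 alternative settings, Cmpk2 was called in 13, Rsad2 in 12, Oasl1 in 11, Oas2 and Ifit2 in 10, Eif2ak2 in 9 and Ifit3 in 7.

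The rest of the pathway was checked from lists chosen by function, over the same 4 arrays. Of all features, 14.4% were called there, 7.75% higher in heart and 6.63% lower. Counted in either direction, the calls in the lists below, where there were any, lay near the 14.4%. Of 11 interferon ligand genes 5 were tested and 0 passed, with a median of -0.34. Of 14 receptor and signalling genes 2 rose and 0 fell, with a median of -0.04. They were Irf8, a myeloid transcription factor (2.91, limma adjusted p = 0.00936), and Il10rb, a chain shared by receptors of interferon lambda and interleukin 10 (0.70, adjusted p = 0.0465). The receptor chains Ifnar1 and Ifnar2 differed by -0.16 and 0.70, and neither passed. Of 12 nucleic acid sensing genes 2 rose and 0 fell, Tlr3 (1.67, adjusted p = 0.00905) and Aim2, a DNA sensor not well above background on either tail array (at least 2.37-fold, adjusted p = 0.00155). Of 10 feedback inhibitors, Socs3 rose (1.91, adjusted p = 0.00308). Of 59 other interferon-induced genes, 9 rose and 1 fell, with a median of 0.48. Slfn2, Slfn5 and Slfn8 of the Schlafen family were higher by 2.89, 1.72 (well above background on 1 of the 2 tail arrays) and 1.65, and the chemokine Cxcl9 was at least 6.67-fold lower in heart (adjusted p = 0.0240), not well above background on either heart array. Over all 6 arrays by label, limma called 0 genes of any of these lists.

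Marker lists were compared over the same 4 arrays, on which 14.4% of all features were called. Of 12 fibroblast markers 5 rose in heart (Lum, Fap, Pdgfra, Dcn and Col3a1) and 2 fell (Thy1 by 1.89 and S100a4 by 0.70), with a median of 0.27. Their summed signal, in multiples of the array's 75th percentile, was 2821 and 3429 on heart 1 and 3, 2994 on tail 1, 3363 and 3070 on tail 2 and 3 and 630 on heart 2. Of 15 tested macrophage and monocyte markers 10 rose in heart and 0 fell, with a median of 2.31, and of 12 endothelial markers 9 rose and 0 fell, with a median of 2.13. Among these 9, Cldn5, Robo4, Tie1 and Emcn were not well above background on either tail array. They passed the filter by the heart arrays alone, so the size of their differences is not known. The summed signal of the macrophage list was 100 and 173 on heart 1 and 3, 139 on tail 1 and 90.3 and 66.4 on tail 2 and 3. The endothelial sums were 49.4, 61.8, 51.8, 45.0 and 36.3 on the same arrays. Both sums were thus highest on heart 3, then on tail 1 and heart 1. On heart 2 the macrophage and endothelial sums were lowest, at 20.4 and 12.8. The sums rest mostly on bright genes. On tail 2 and 3 the brightest were Csf1r and Itgam of the macrophage list, which differed by 0.19 and -0.63. Kdr and Egfl7 were the brightest there of the endothelial list and differed by -0.43 and 0.10. None of these genes was called. Of 12 dendritic and plasmacytoid markers 7 were tested and 2 rose (Itgax and Tcf4), and Bst2, which did not pass, is in that list as well. Its sums were 215 (heart 1), 293 (heart 3), 194 (tail 2) and 164 (tail 3), most of it from Bst2 and Siglech. Without these 2 genes, taken out after the values were seen, they were 17.5, 18.1, 7.16 and 6.84. Siglech, a plasmacytoid marker, had log2 signals of 6.90 and 6.88 on heart 1 and 3 and 6.82 and 6.70 on tail 2 and 3. Itgax, Tcf4, Bst2, H2-Ab1 and Cd74 were likewise well above background on all 4 arrays, and Zbtb46 on 3. The rest of that list, Flt3, Ccr9, Xcr1, Clec9a and H2-Aa, was not well above background on any of the 4 arrays. Of 11 lymphocyte markers 4 were tested and 0 passed, with sums of 9.92 and 12.9 in heart against 15.2 and 12.9 in tail. Cd3e, Cd4 and Nkg7 were well above background on all 4 arrays, while Cd3g, Cd8a and Cd79a were not on any. Of 6 tested cardiomyocyte markers 1 rose (Tnnt2) and 2 fell (Myl2 and Actc1), and of 4 tested keratinocyte markers 0 rose and 1 fell (Dsp). Actc1 and Dsp were not well above background on either heart array and passed the filter by the tail arrays alone. The part of these cells in the differences of the interferon-stimulated genes was not tested.

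**Figure D5:**
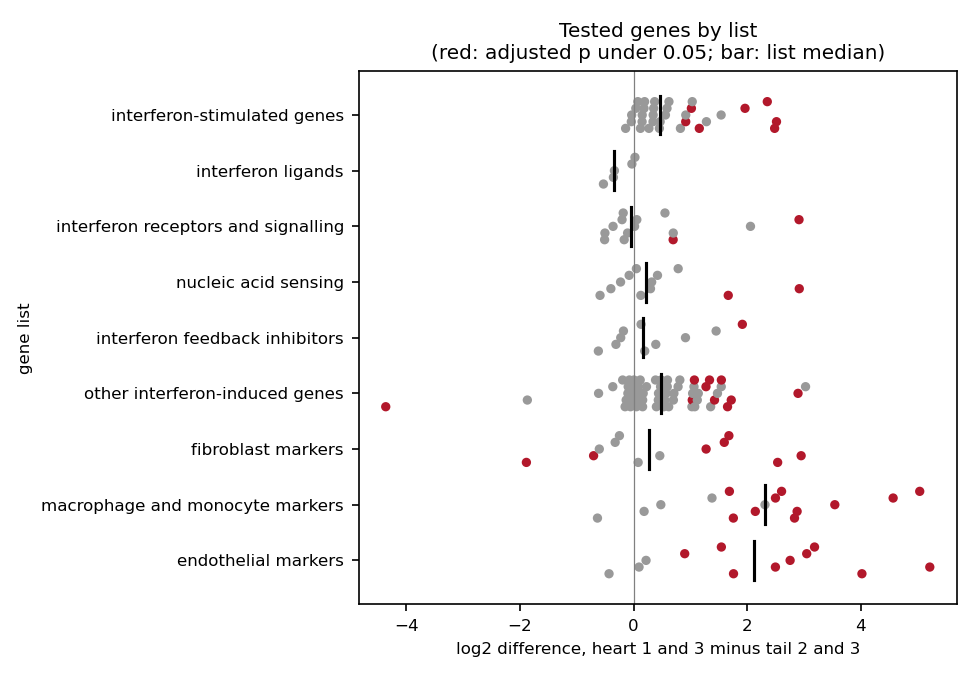
Log2 difference of heart 1 and 3 minus tail 2 and 3 (x axis) for the tested genes of each list, with called genes in red and the list median as a black bar. The interferon-stimulated genes have a median of 0.46, the ligands -0.34, and the macrophage and endothelial markers 2.31 and 2.13. For genes not well above background in a group, such as Cldn5 and Robo4 in tail, the size of the difference is not known.

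Of the 6 called members with a window, 3 held a core (Rsad2, Ifit3 and Eif2ak2) and 3 did not (Cmpk2, Oasl1 and Ifit2). The median log2 difference was 0.83 for the 11 tested members with a core and 0.31 for the 14 without, and both groups ranged widely, from 0.08 to 2.52 and from -0.14 to 2.35. Oas2 had no window in the table used.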

How the data were processed

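Per the file headers, the deposited files hold spot intensity values read with Agilent Feature Extraction 11.0.1.1 (also in the submitters' processing notes), background-subtracted but not scaled between arrays, and other columns, flags of 0 or 1. The authors' deposited table gives a log2 fold change and a fold ratio for 433 probes. No source used here gives how it was made.

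Log2 processed signals were taken relative to the 75th percentile of the array's non-control probes. Spots with an outlier flag were dropped, and those of 1 probe averaged (59305 spots, 55681 probes per array). RefSeq accessions named 27229 probes, and 16 more took names from the deposited list. A probe was kept if it was well above background on every array of either group, and a gene was represented by its probe of highest mean. Groups were compared with limma 3.58.1 (R 4.3.3, two-sided, Benjamini-Hochberg adjusted p under 0.05). The code was run on simulated normal data with a spread taken from heart 1, heart 3, tail 2 and tail 3. Those data hold no array like heart 2 or tail 1, so they do not test the fits with these arrays. Python 3.11.15, pandas 2.3.3 and matplotlib 3.10.9 were used otherwise. A fold at least N sets the brighter group against the dimmest probes well above background. The number of arrays limits the precision.

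The members and lists were chosen with earlier results of these data known. By rule, per-array values are given for called members and, up to 10, those with the largest 4-array differences; Isg15, Oas3 and Bst2 were added after their values were seen, as were the non-called genes named in the pathway lists. The percentile was first taken over spots and changed to probes, which the definition of the values requires, after results of both had been seen. Whether replicate numbers pair samples could not be decided. Deviations of same-numbered arrays from their group correlated at 0.19, 0.26 and -0.33. The groups included the heart array that stood apart and the tail array that opposed its label. Those arrays can set the signs, so the correlations neither show nor exclude pairing. The main comparisons used no pairing.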

Additional observations from a re-analysis of the deposited data

How the results depend on the processing

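With 2 or 3 cultures a group, calls were unstable. Over 6 arrays, 0 features were called under quantile, median and normexp settings, other filters, the mean of probes, the slide row block, the intensity trend and the percentile over spots. With the replicate block, 44 features (35 higher, 9 lower) and 0 members were called. Array weights gave different answers by estimation and percentile. The planned default stopped before convergence and gave 1 feature, 0 members and a median of 0.43. Weights estimated gene by gene, added after this was seen, gave 2191 features and 4 members (Cmpk2, Oas2, Oasl1, Rsad2), and with the percentile over spots 2020 features, 3 members and a median of 0.44. The default with the percentile over spots, which also did not converge, gave 4252 features, 12 members and a median of 0.62. No call with weights is used. Leaving out heart 2 and tail 1 gave 2956 features and 7 members. Leaving out 1 array gave 0 to 217 features, 0 members and medians of -1.57 to 0.24.

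Only Rsad2, Oas2, Cmpk2, Oasl1 and Isg15 were followed singly over 6 arrays, a choice made after values were seen. Quantile normalization turned Rsad2 to -0.74, and median scaling turned Rsad2, Cmpk2 and Oasl1 to -0.49, -0.57 and -0.43. Median scaling moved the median of all features from -0.40 to -1.33 and left 0 of 32 members positive, quantile normalization 2. Oas2 turned to 2.44, 2.40, 2.81 and 2.42 and Isg15 to 0.90, 0.88, 1.13 and 0.90 with the default, gene-by-gene, default spot-percentile and gene-by-gene spot-percentile weights, and to 2.48 and 0.92 without heart 2 and tail 1. Leaving out 1 array gave -0.30 to 1.63 for Rsad2, -1.37 to 1.496 for Oas2, -0.28 to 1.52 for Cmpk2, -0.095 to 1.38 for Oasl1 and -1.92 to 0.55 for Isg15.

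Over 4 arrays, no filter gave 714 features and 1 member, Cmpk2, with more features tested. The percentile over spots gave 6 members, without Ifit3, and 14.3% of features. The other settings that kept 4 arrays gave 6 to 9 members and 11.6% to 15.8% of features. Leaving out 1 array gave 1568 to 3948 features, 2 to 14 members called higher, and medians of 0.22 to 0.76. Directions turned on leaving out 1 array for Dhx58 (-0.32 to 0.40), Gbp2 (-0.20 to 0.59), Ifi35 (-0.081 to 0.32), Ifi44 (-0.59 to 0.89), Irf1 (-0.29 to 0.22), Oas3 (-0.17 to 1.42), Parp14 (-0.060 to 0.43), Psmb8 (-0.044 to 0.73), Psmb9 (-0.71 to 0.63), Stat2 (-0.35 to 0.50) and Tap1 (-0.13 to 0.43). The cause of these shifts was not tested.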
